A study of Mus musculus with 6 samples.

Results

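The BCL2 family decides whether a cell keeps or loses its mitochondrial outer membrane, and 10 of its mouse genes were followed here: Mcl1, Bcl2a1a, Bcl2a1b, Bcl2a1d and Bcl2l1, which protect cells, and Bcl2l11, Bax, Bid, Pmaip1 and Bbc3, which promote death. The members were the rows with these symbols among the 32285 genes counted, and all 10 were found in all 6 libraries and passed the filter on low counts in every comparison. The cells came from mice with gliomas of the mouse line SB28, taken 18 days after injection of 10000 tumor cells, and were profiled by droplet-based 3' single-cell RNA sequencing. A pair of libraries held CD45+ tumor cells, that is, leukocytes of the tumor without further selection. A pair held neutrophils sorted from blood and a pair held neutrophils sorted from tumor, both through a gate for CD45+, CD11b+ cells with high LY6G and low or no LY6C. All mice bore tumors, so blood of mice without tumors is not among the groups, and no treatment, genotype or age is given in the labels used here. The labels number the samples without tying them to individual mice. The p-values therefore measure sample-to-sample spread, part or all of which may be technical.

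Mature neutrophils are short-lived cells that die by apoptosis unless survival signals delay it. In the mitochondrial pathway of apoptosis, BAX and BAK form pores in the outer membrane and cytochrome c leaves through them. MCL1, A1 (encoded in mice by the Bcl2a1 copies) and BCL-XL (encoded by Bcl2l1) hold the pore formers and their activators in check. BIM (Bcl2l11), BID, NOXA (Pmaip1) and PUMA (Bbc3) are BH3-only proteins, which occupy the protective members or activate the pore formers. NOXA binds mainly MCL1 and A1, and neutrophils are known to depend on MCL1.

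A cell was counted as a neutrophil when S100a8 and S100a9, abundant calcium-binding proteins of neutrophils, made up at least 0.5% of its unique molecular identifiers (UMIs). The rule gave 2951 and 5006 neutrophils in blood, 3347 and 5548 in sorted tumor, and 613 and 809 in the CD45+ libraries, which also held 8039 and 7298 other cells. Neutrophils had median depths between 1614 and 4253 UMIs, the lowest in the CD45+ libraries, and the other CD45+ cells 6748 and 12132. The 12 neutrophil markers were all detected in each of the 6 sets of neutrophils. Levels are given as CPM, the UMIs of a gene per 1000000 UMIs of the summed cells. The summed level of these markers was 172679 and 167452 CPM in blood, 81942 and 91098 in sorted tumor, 52893 and 57365 in CD45+ tumor and 1426 and 1357 in other CD45+ cells. These 12 markers include S100a8 and S100a9, which in blood neutrophils held a median of 12.6% and 11.7% of UMIs. The difference from other cells is thus in large part fixed by the rule and is no separate support for it. Neutrophils by this rule also carried transcripts of phagocytes. The 12 macrophage markers summed to 357 and 471 CPM in blood neutrophils, 5244 and 4056 in sorted tumor neutrophils and 9243 and 13709 in CD45+ tumor neutrophils, against 21559 and 23820 in other CD45+ cells. Cells with at least 0.5% of UMIs from C1qa, C1qb, C1qc, Apoe and Cd74 made up 0.136% and 3.92% of the blood neutrophils, 5.47% and 3.77% of the sorted tumor neutrophils and 17.1% and 14.5% of the CD45+ tumor neutrophils. Their share of the summed UMIs, on which the levels rest, was larger in tumor. It was 0.3088% and 2.396% in blood, 17.60% and 12.01% in sorted tumor and 31.98% and 41.12% in CD45+ tumor neutrophils. Blood neutrophils carried more transcripts of red cells and B cells. The erythroid markers summed to 10.4 and 314 CPM in blood against 5.16 and 1.07 CPM in sorted tumor, and the B or plasma cell markers to 26.7 and 75.4 against 4.32 and 5.45 CPM. Between tumor and blood neutrophils, 9 of 12 macrophage markers and 8 of 9 microglia markers tested were called higher, and 4 of 4 erythroid and 6 of 6 B or plasma cell markers tested were called lower. Beyond the values without phagocyte-transcript cells given below, their part in the results was not tested. The first CD45+ library and the second sorted tumor library shared 162 barcodes, 2.45% of the smaller library, and other pairs shared between 3 and 35. Results are therefore also given without phagocyte-transcript cells and without shared barcodes where that changes a call.

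The 3 Bcl2a1 copies are near-identical genes on chromosome 9 and their counts cannot be treated as fully separate. Over their transcripts Bcl2a1a and Bcl2a1b were 98.2% identical, Bcl2a1a and Bcl2a1d 98.8% and Bcl2a1b and Bcl2a1d 99.1%. Of the windows of 90 bases in the last 500 bases of each transcript, where 3' reads fall, 60.3% of those of Bcl2a1a, 60.6% of those of Bcl2a1b and 34.8% of those of Bcl2a1d occurred in no other copy. The sources used here do not say how reads that fit several copies were counted, so the division between copies is uncertain and levels of the copies are not compared with each other. The sequence before their start sites is shown as a description. The counts of all 3 copies rose in tumor neutrophils, but as these counts are not fully separate, they do not show that each copy rose. Each stretch is from the RefSeq promoter table (GRCm38.p6), 5′ to 3′ on the gene's strand, and ends before the transcript annotated in GENCODE vM21. Capitals mark GAGGAAGT, a sequence of the kind bound by PU.1, a transcription factor of myeloid cells. The stretches lie at chr9:88956726-88956852 on the plus strand for Bcl2a1a, chr9:89199035-89199161 on the plus strand for Bcl2a1b and chr9:88731918-88732044 on the minus strand for Bcl2a1d.
Bcl2a1a: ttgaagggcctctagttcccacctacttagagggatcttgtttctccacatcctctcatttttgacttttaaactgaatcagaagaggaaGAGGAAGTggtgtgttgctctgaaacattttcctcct
Bcl2a1b: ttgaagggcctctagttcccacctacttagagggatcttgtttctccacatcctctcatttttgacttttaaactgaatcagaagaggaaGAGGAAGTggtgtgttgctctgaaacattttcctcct
Bcl2a1d: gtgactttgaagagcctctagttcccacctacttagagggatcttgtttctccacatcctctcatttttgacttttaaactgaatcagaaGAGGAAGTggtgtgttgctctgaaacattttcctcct
The stretches of Bcl2a1a and Bcl2a1b were identical over 127 bases. That of Bcl2a1d differed from each of these at 1 of 121 aligned bases, with 6 bases unaligned. In Bcl2a1a and Bcl2a1b the bases gaggaa stand directly before the marked sequence, and in Bcl2a1d they do not.

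Sequence motifs were searched on both strands in the 250 bases before each of 14 start sites of 9 members in the RefSeq table. Pmaip1 was not searched, so the statements below do not cover it. GAGGAAGT was present in all 3 Bcl2a1 copies and in no other member searched, against 2.44% of 32851 promoters. The promoters of the 3 copies were 98.0% to 99.2% identical over their aligned bases, so these are not separate matches. The core of the hypoxia response element, ACGTG or GCGTG, was found at 8 of the 14 start sites, those of 6 members, Bax, Bbc3, Bcl2a1b, Bcl2a1d, Bcl2l1 and Bcl2l11, against 38.6% of all promoters. A FOXO sequence, GTAAACA or ATAAACA, was found before a start site of Bcl2l11 and of Bbc3 (7.1% of all promoters). The NF-kappaB motif was found for Bcl2l1 and Bbc3 (7.25%), and a p53 half-site for Bax (7.13%). TGACTCA or TGAGTCA, the AP-1 sequence (4.46%), and the cyclic AMP response element (1.55%) were found for none of the 9 members searched. These matches describe letters in these windows and were not tested for binding or for any part in the values below.

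In tumor against blood neutrophils, protective and death-promoting members both rose. Of the 10 members, 8 were higher in sorted tumor neutrophils and 1, Bid, was lower at an adjusted p under 0.05. This tissue contrast moved much of the transcriptome, with 33.3% of 13635 genes called higher and 30.7% called lower. The median log2 difference was 1.91 over the members and 0.019 over all genes tested. The 3 Bcl2a1 copies, whose counts are not fully separate, enter these counts and this median as 3 members with the largest values. All 5 protective members and 3 of the 5 death-promoting members, Bcl2l11, Bax and Pmaip1, were among those that rose. Fold changes are from edgeR's quasi-likelihood test on UMI counts summed per library, with Benjamini-Hochberg adjustment over all genes tested. They are given on the log2 scale with a standard error (SE). That test gives no SE, so it was computed as the size of the log2 fold change divided by the square root of the test's F.

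The Bcl2a1 copies, which encode the inducible protective protein A1, had the largest differences among the members. Bcl2a1b (ENSMUSG00000089929, chr9:89199209-89207827) stood at 26.1 and 31.8 CPM in the blood libraries and 897 and 716 CPM in the sorted tumor libraries. The tumor libraries thus lay far above both blood libraries, and the log2 fold change was 4.85 ± 0.16 (adjusted p = 1.78e-06). Bcl2a1a (ENSMUSG00000102037, chr9:88956900-88962419) was at 12 CPM in both blood libraries and at 251 and 187 CPM in tumor, a log2 fold change of 4.24 ± 0.15 (adjusted p = 1.87e-06). Bcl2a1d (ENSMUSG00000099974, chr9:88723285-88731914) was at 5.13 and 6.94 CPM in blood and 147 and 91.8 CPM in tumor, a log2 fold change of 4.33 ± 0.23 (adjusted p = 5.93e-06). For each copy the first sorted tumor library was higher than the second. Bcl2a1d overlaps the antisense gene Gm10634. After each cell was thinned to 1000 UMIs, Bcl2a1b was seen in 2.57% ± 0.38 (SD, n = 2) of blood neutrophils and 39.2% ± 3.84 of sorted tumor neutrophils. In all their UMIs the shares were 8.73% and 64.6%, at median depths of 4253 and 3952 UMIs in blood and 3904 and 3872 in sorted tumor. No population here is known to lack the members, so the share that free RNA alone would give was not measured.

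Bcl2l1, the gene of BCL-XL, showed the next largest rise. It was at 75.0 and 88.6 CPM in blood and 527 and 667 CPM in sorted tumor (ENSMUSG00000007659, chr2:152780668-152831728), with no overlap between the groups. The log2 fold change was 2.94 ± 0.19 (adjusted p = 1.43e-05). At 1000 UMIs it was seen in 6.52% ± 1.11 of blood and 42.0% ± 4.74 of sorted tumor neutrophils (SD, n = 2).

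Mcl1, the gene of the protein on which neutrophils depend, was already high in blood and changed least among the protective members. Its level (ENSMUSG00000038612, chr3:95658788-95663176) was 2126 and 2054 CPM in blood and 2984 and 3049 CPM in sorted tumor. The libraries of a group lay close together and the groups did not overlap, and the log2 fold change was 0.59 ± 0.17 (adjusted p = 0.0166). This call was lost without the second blood library (adjusted p = 0.0724) and without shared barcodes (log2 fold change 0.68, adjusted p = 0.0505). Without phagocyte-transcript cells it was larger, at 0.94 (adjusted p = 0.000523), with 2128 and 2075 CPM in blood and 3278 and 3258 CPM in tumor. At 1000 UMIs Mcl1 was seen in 85.1% ± 0.35 of blood and 90.6% ± 0.42 of sorted tumor neutrophils.

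Bcl2l11, the gene of the death activator BIM, rose in parallel with the protective genes. It was at 61.6 and 62.8 CPM in blood and 322 and 337 CPM in sorted tumor (ENSMUSG00000027381, chr2:128126038-128162547). The log2 fold change was 2.47 ± 0.13 (adjusted p = 6.7e-06), and replicates of a group were close to each other. Pmaip1, the gene of NOXA (ENSMUSG00000024521, chr18:66458533-66465565), was at 45.2 and 42.9 CPM in blood and 96.5 and 89.5 CPM in tumor, a log2 fold change of 1.14 ± 0.12 (adjusted p = 0.000125). Bax, the pore former (ENSMUSG00000003873, chr7:45461697-45466898), was at 20.8 and 28.1 CPM in blood and 62.5 and 57.0 CPM in tumor, a log2 fold change of 1.35 ± 0.15 (adjusted p = 0.000177). Without phagocyte-transcript cells the log2 fold change of Bax was 1.46 (adjusted p = 0.000107).

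Bid, which links death receptors and caspase-8 to the mitochondria, was the member that fell. Its level was 60.8 and 52.9 CPM in blood and 13.6 and 10.9 CPM in sorted tumor (ENSMUSG00000004446, chr6:120891930-120916853), and the log2 fold change was -2.16 ± 0.15 (adjusted p = 1.92e-05). Both tumor libraries lay well below both blood libraries. At 1000 UMIs it was seen in 5.29% ± 0.94 of blood and 1.19% ± 0.030 of sorted tumor neutrophils. Bid overlaps Bcl2l13 on the opposite strand over 913 bases, and Bcl2l13 was higher in tumor. Bbc3, the gene of PUMA (ENSMUSG00000002083, chr7:16308393-16318205), stood at 13.1 and 11.6 CPM in blood and 9.29 and 8.53 CPM in tumor. Its log2 fold change of -0.41 ± 0.17 did not pass (adjusted p = 0.0735).

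**Figure D1:**
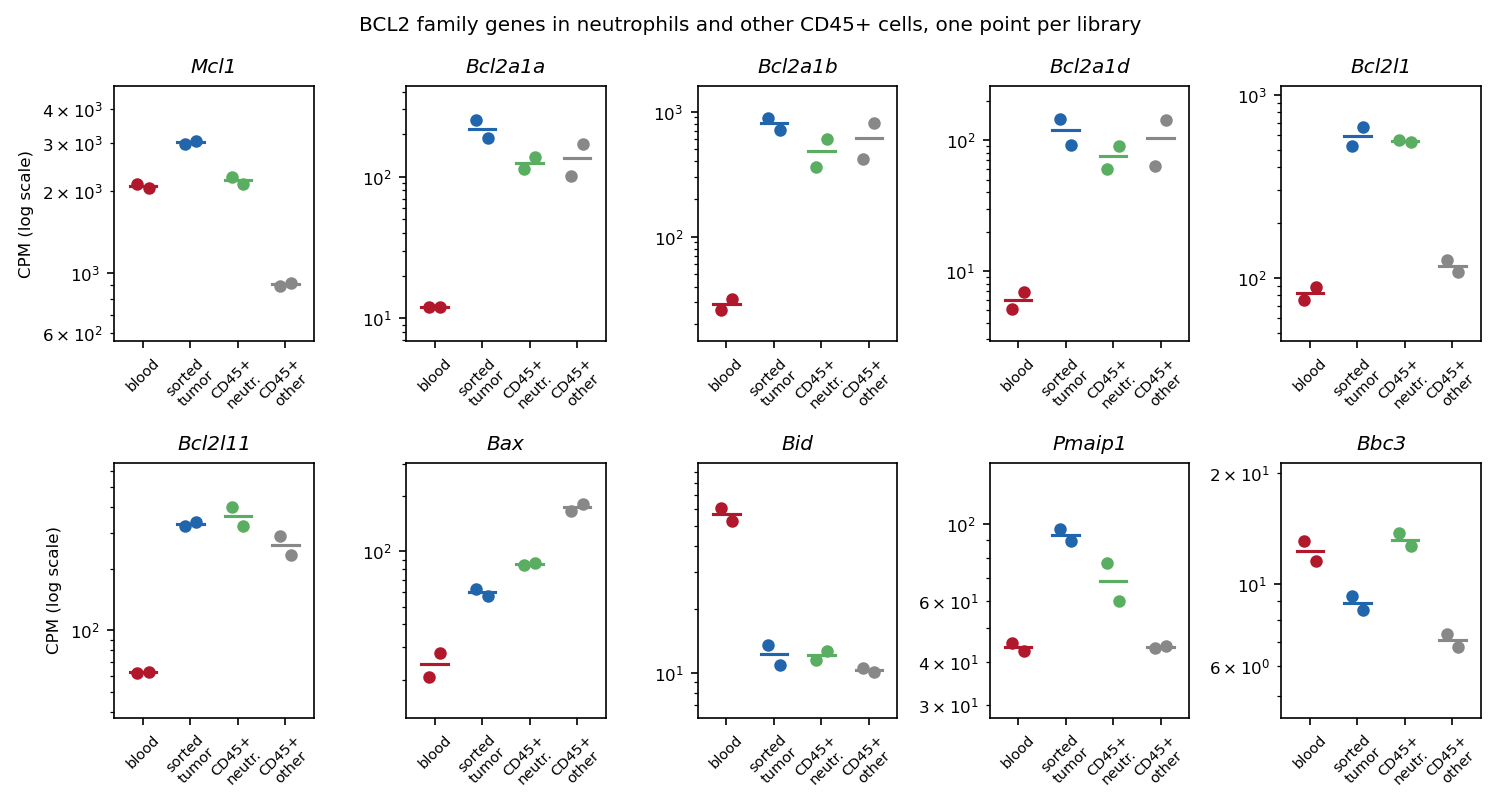
Levels of the 10 genes in CPM (log axis, a separate scale for each gene) in blood neutrophils, sorted tumor neutrophils, neutrophils of the CD45+ libraries and other CD45+ cells; each point is a library and each line the mean of 2. The Bcl2a1 copies, Bcl2l1 and Bcl2l11 are low in blood and high in both kinds of tumor neutrophils, while Bid is high in blood (60.8 and 52.9) and between 10.0 and 13.6 elsewhere.

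The 8 calls other than that of Mcl1 held under each of 15 other settings, which left out cells, shared barcodes or a library or changed the scaling, the filter or the test. The plot of settings shows the spread of each value. Without phagocyte-transcript cells, the macrophage markers of sorted tumor neutrophils summed to 556 and 505 CPM, and the log2 fold changes were 5.17 for Bcl2a1b, 4.61 for Bcl2a1a, 4.81 for Bcl2a1d, 3.28 for Bcl2l1, 2.81 for Bcl2l11 and -1.96 for Bid. These were as large as or larger than in all neutrophils, apart from that of Bid.

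**Figure D2:**
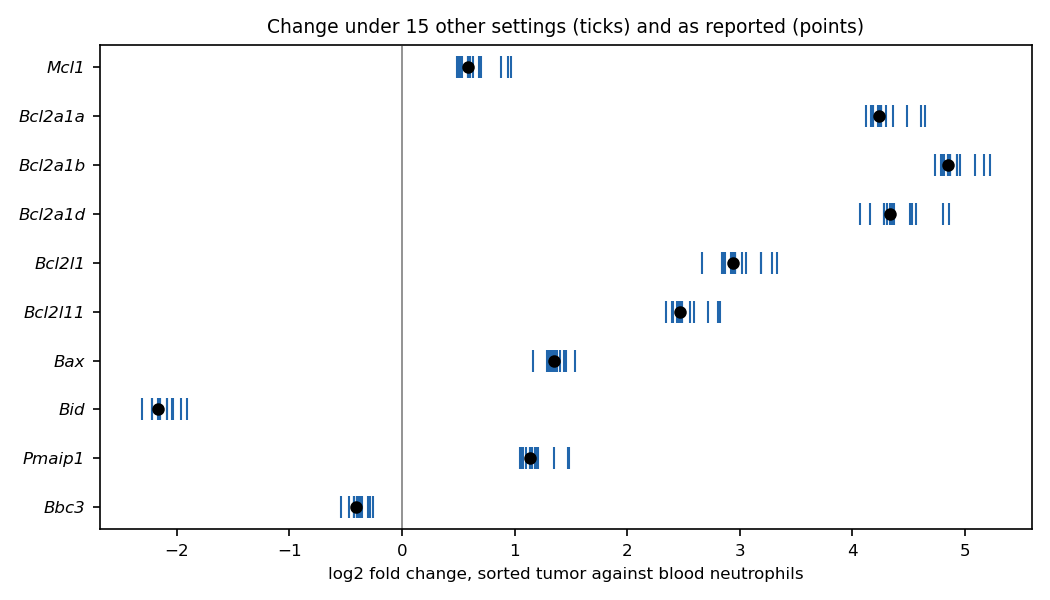
Log2 fold change of each gene in sorted tumor against blood neutrophils, as reported (points) and under 15 other settings (ticks). No tick of any gene lies on the other side of 0, and the ticks of Mcl1 run from 0.49 to 0.96.

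Genes around the family were read from lists of the same pathway. Their counts stand beside 33.3% of all tested genes called higher and 30.7% called lower, and with so few genes a list near those shares is no result about the list. Of the other protective BCL2 genes, 2 of 2 tested rose, at low levels: Bcl2 from 1.24 and 1.70 CPM in blood to 7.87 and 6.32 CPM in sorted tumor (log2 fold change 2.30 ± 0.26), and Bcl2l2 by 1.20 ± 0.44. The call of Bcl2l2, from 4 and 10 UMIs in blood and 17 and 20 in tumor, was lost in 11 of the 12 other settings that gave a value. These included leaving out any 1 of the libraries (adjusted p = 0.255 and 0.112 without the first and second blood library, 0.21 and 0.146 without the first and second sorted tumor library). The pore former Bak1 was at 13.7 and 15.9 CPM in blood and 13.9 and 10.9 CPM in tumor and did not pass (adjusted p = 0.28). Among other BH3-only and related genes, 6 of 8 tested rose and 2 fell. Bcl2l15 rose by 2.92 ± 0.34 and Bnip3, the gene of a mitochondrial protein and known to respond to hypoxia, by 2.65 ± 0.20. Bmf (-0.95 ± 0.22) and Bad (-0.78 ± 0.14) fell, and Bmf was lost without the second blood library (adjusted p = 0.0636).

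In the list of mitochondrial pathway genes and caspases, 4 of 16 tested genes rose and 7 fell. Cycs, which encodes cytochrome c, was at 18.0 and 20.0 CPM in blood and 88.9 and 104 CPM in tumor (log2 fold change 2.41 ± 0.16), and Endog rose by 1.95 ± 0.42. Casp2 fell by 1.60 and Dffb, a nuclease gene, by 1.51. Of the caspase inhibitors 2 of 6 rose, a share near that of all genes: Cflar (1.73 ± 0.16), which restrains caspase-8, and Birc3 (0.69 ± 0.12), and Xiap fell (-0.38 ± 0.12). Xiap was lost in 7 of 15 other settings, among them without the first (adjusted p = 0.106) or second (0.092) blood library or the second sorted tumor library (0.0681), and without phagocyte-transcript cells (-0.14, adjusted p = 0.295).

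Among death receptors and adaptors, 7 of 11 rose and 2 fell. Fadd had 0 and 3 UMIs in blood and 21 and 22 in sorted tumor. The ratio was 11.6, and its exact 95% interval for counting error ran from 3.72 to 58.5. Fasl rose by 3.07 ± 0.45 from 4 UMIs in each blood library, and Tnfrsf1a (-0.69 ± 0.13) and Ripk1 (-0.51 ± 0.15) fell. Ripk1 was lost in 6 of 15 other settings, among them without the first blood library (adjusted p = 0.173) or the second sorted tumor library (0.0559), and without phagocyte-transcript cells (0.0623). Of p53 and its targets, 5 of 8 tested rose and none fell. Cdkn1a, the gene of the cell cycle inhibitor p21, went from 10.2 and 11.5 CPM in blood to 1327 and 1335 CPM in tumor, a log2 fold change of 7.0 ± 0.18 (adjusted p = 1.75e-06), and Zmat3 rose by 1.31 ± 0.40. Zmat3, at 7 and 11 UMIs in blood and 19 and 34 in tumor, was lost in 6 of 12 other settings. These were DESeq2 (adjusted p = 0.149), leaving out shared barcodes (0.0681) and leaving out any 1 of the libraries (adjusted p = 0.0811 and 0.111 without the first and second blood library, 0.0559 and 0.171 without the first and second sorted tumor library). Without the second sorted tumor library 3 genes of this list were higher and 1 lower.

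Of the genes that set the turnover of MCL1 protein, 2 of 6 tested rose and 3 fell. Pim1, a kinase gene, rose by 1.54 ± 0.23 and Huwe1, the ubiquitin ligase also called MULE, by 0.54 ± 0.12, a call lost without the second blood library (adjusted p = 0.087). The ligase genes Fbxw7 (-1.05 ± 0.12) and Btrc (-0.98 ± 0.16) fell. Of 8 survival receptors 5 rose and 2 fell. Csf3r, the receptor of the growth factor G-CSF, dropped from 3015 and 2768 CPM in blood to 846 and 704 CPM in tumor (log2 fold change -1.85 ± 0.16), and Ifngr1 fell as well (-0.43 ± 0.14). Ifngr1 was lost in 4 of 15 other settings, without shared barcodes (adjusted p = 0.0593), the first blood library (0.267) or either sorted tumor library (0.0539 and 0.0771). Tlr4 rose by 2.67 ± 0.14 and Csf2rb2 by 1.94 ± 0.14.

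CD45+ tumor neutrophils against other CD45+ cells asked how the neutrophils of the tumor differ from its other leukocytes in the same libraries. Of the members, 5 were higher in neutrophils, Mcl1, Bcl2l1, Bcl2l11, Pmaip1 and Bbc3, and 1, Bax, was lower; the Bcl2a1 copies and Bid did not pass. Among 16138 genes, 18.9% were called higher and 22.8% lower. All 9 of 9 microglia markers tested were called higher in neutrophils, while 6 of 12 macrophage markers were called lower and 0 higher. The microglia markers summed to 1413 and 1761 CPM in neutrophils and 839 and 1020 CPM in other cells. Without phagocyte-transcript cells they summed to 406 and 307 CPM in neutrophils. Beyond the values without those cells or clusters, their part in the calls was not tested. The fit held the library as a block, which leaves 1 residual degree of freedom, so its spread came almost wholly from the other genes. With the block, edgeR's adjusted p for the 6 calls ran from 5.28e-67 (Bcl2l1) to 0.00156 (Bbc3). Adjusted p-values are therefore also quoted from the fit without the block, in which each of these 6 calls was also made. The log2 fold changes and SE given below are from the fit with the block. Those SE thus rest almost wholly on the other genes and do not belong to the p-values without the block. Without TMM scaling the median difference of all genes moved by -0.23.

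Bcl2l1 showed the largest difference of the members, with 562 and 553 CPM in CD45+ tumor neutrophils and 125 and 108 CPM in other CD45+ cells. The log2 fold change was 2.49 ± 0.14 (without the block, adjusted p = 0.00264). Mcl1 was at 2259 and 2121 CPM in neutrophils and 894 and 922 CPM in other cells, a log2 fold change of 1.49 ± 0.12 (without the block, adjusted p = 0.0075). Both protective genes separated the populations in each library.

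The death-promoting genes split. Bcl2l11 was at 401 and 322 CPM in neutrophils and 290 and 234 CPM in other cells (0.69 ± 0.14, adjusted p = 0.0391 without the block). Pmaip1 was at 77.3 and 59.7 CPM against 43.7 and 44.5 CPM (0.83 ± 0.16, adjusted p = 0.0278 without the block). Bax was lower, at 83.8 and 85.9 CPM against 167 and 182 CPM (-0.81 ± 0.15, adjusted p = 0.0299 without the block). Without phagocyte-transcript cells its level in neutrophils was 68.0 and 62.9 CPM and its log2 fold change -1.03. Over 13 other settings that value ran from -1.73, with phagocyte-led and B cell-led clusters left out, to -0.41, with S100a8 and S100a9 at 0.2% of UMIs.

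Bbc3 was at 13.7 and 12.6 CPM in CD45+ tumor neutrophils and 7.35 and 6.77 CPM in other cells (1.13 ± 0.32, adjusted p = 0.033 without the block). That difference moved with the phagocyte-transcript cells. Without them Bbc3 was at 5.31 and 8.99 CPM in neutrophils and the call was lost (log2 fold change 0.51, adjusted p = 0.418), as it was with phagocyte-led clusters left out (0.14) or with S100a8 and S100a9 at 2% of UMIs (0.13).

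The Bcl2a1 copies did not pass in this comparison. Bcl2a1b was at 364 and 603 CPM in CD45+ tumor neutrophils and 418 and 811 CPM in other cells, and was higher in the second library in both. Its log2 fold change was -0.094 ± 0.12, and its direction changed between settings. Bcl2a1a stood at 113 and 137 CPM against 101 and 171 CPM (0.12 ± 0.15) and Bcl2a1d at 60.7 and 90.3 CPM against 63.8 and 144 CPM (-0.19 ± 0.16). Without TMM scaling Bcl2a1b and Bcl2a1d passed as lower in neutrophils (-0.32 and -0.43) and Bcl2a1a changed sign (-0.11). Bid was at 11.6 and 12.6 CPM against 10.5 and 10.0 CPM and did not pass (0.49 ± 0.30).

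**Figure D3:**
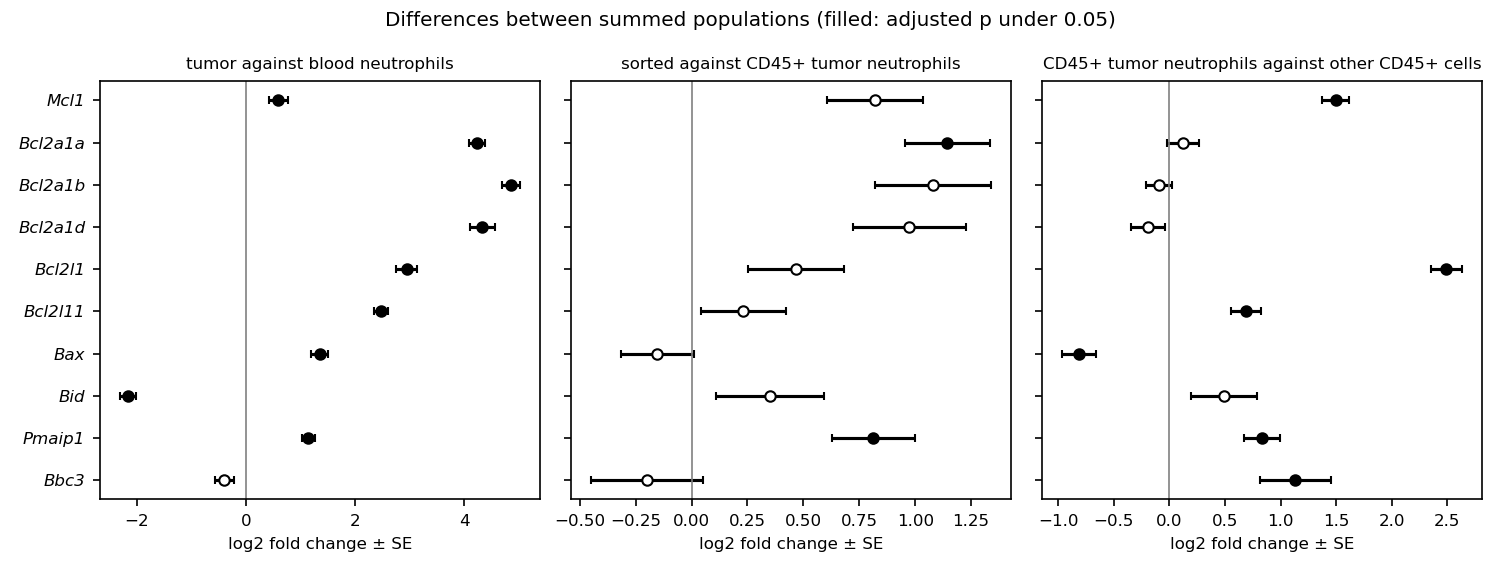
Log2 fold change ± SE of each gene in the 3 comparisons, from sums over 2 libraries per population. Filled points passed an adjusted p under 0.05, and each panel has its own scale. For CD45+ tumor neutrophils against other CD45+ cells, SE and adjusted p are from the fit with the library as a block. The tumor against blood panel holds the largest values (4.85 for Bcl2a1b), and Bcl2l1 (2.49) leads the panel of CD45+ tumor neutrophils against other CD45+ cells.

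The other CD45+ cells were clustered without the members' genes, and classes were named from markers. Mononuclear phagocyte-like cells made up 50.6% and 59.0% of them, dendritic cell-like cells 8.14% and 9.88%, T/NK-like cells 7.44% and 4.11% and B/plasma-like cells 2.69% and 0.699%. Unnamed clusters held 30.1% and 25.2%. Levels by class are described without a test.

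Mcl1 was ordered by class in the same way in both libraries. It was highest in 73 and 62 neutrophil-like cells that fell below the S100a8 and S100a9 rule, at 2514 and 2759 CPM. Monocyte-like cells followed at 1409 and 1459 CPM, macrophage-like cells at 913 and 955 CPM, microglia-like cells at 705 and 755 CPM and dendritic cell-like cells at 635 and 652 CPM. T/NK-like cells (516 and 465 CPM) and B/plasma-like cells (349 and 436 CPM) were lowest. Neighbours in this order did not overlap between libraries. Mast cell or basophil-like cells, 15 and 18 in number, are left out of these orders.

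Bcl2l1 was also highest in the neutrophil-like cells below the rule, at 755 and 886 CPM. The phagocyte, dendritic and T/NK classes lay between 79.5 and 181 CPM and overlapped each other. B/plasma-like cells stood apart, with 4.34 and 5.66 CPM.

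Bcl2a1b was broad in myeloid cells. It was at 775 and 685 CPM in the neutrophil-like cells below the rule. Its level was 467 and 1086 CPM in dendritic cell-like cells, 493 and 861 CPM in macrophage-like cells, 416 and 775 CPM in microglia-like cells, 291 and 538 CPM in monocyte-like cells and 275 and 403 CPM in T/NK-like cells. In each class but the neutrophil-like cells the second library was the higher, and neighbours in this order of means overlapped. B/plasma-like cells had 34.7 and 45.3 CPM.

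The death-promoting genes had other orders. Among the classes, Bcl2l11 was highest in the neutrophil-like cells below the rule, at 745 and 502 CPM, from 75 and 55 UMIs. The more numerous neutrophils by the rule were at 401 and 322 CPM, below T/NK-like cells in both libraries. Bcl2l11 was at 439 and 461 CPM in T/NK-like cells, 358 and 430 CPM in B/plasma-like cells and 474 and 375 CPM in monocyte-like cells. It was lowest in microglia-like cells (145 and 95.5 CPM). Pmaip1 was highest in dendritic cell-like cells, at 175 and 201 CPM, among the named classes other than neutrophil-like cells (199 and 91.4 CPM). Its level in macrophage-like cells was 35.0 and 33.8 CPM. Bax was highest among the named classes in macrophage-like cells (190 and 194 CPM). Bbc3 stayed low, and microglia-like cells, at 18.0 and 15.8 CPM, were above macrophage-like cells, at 7.47 and 6.03 CPM, in both libraries.

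**Figure D4:**
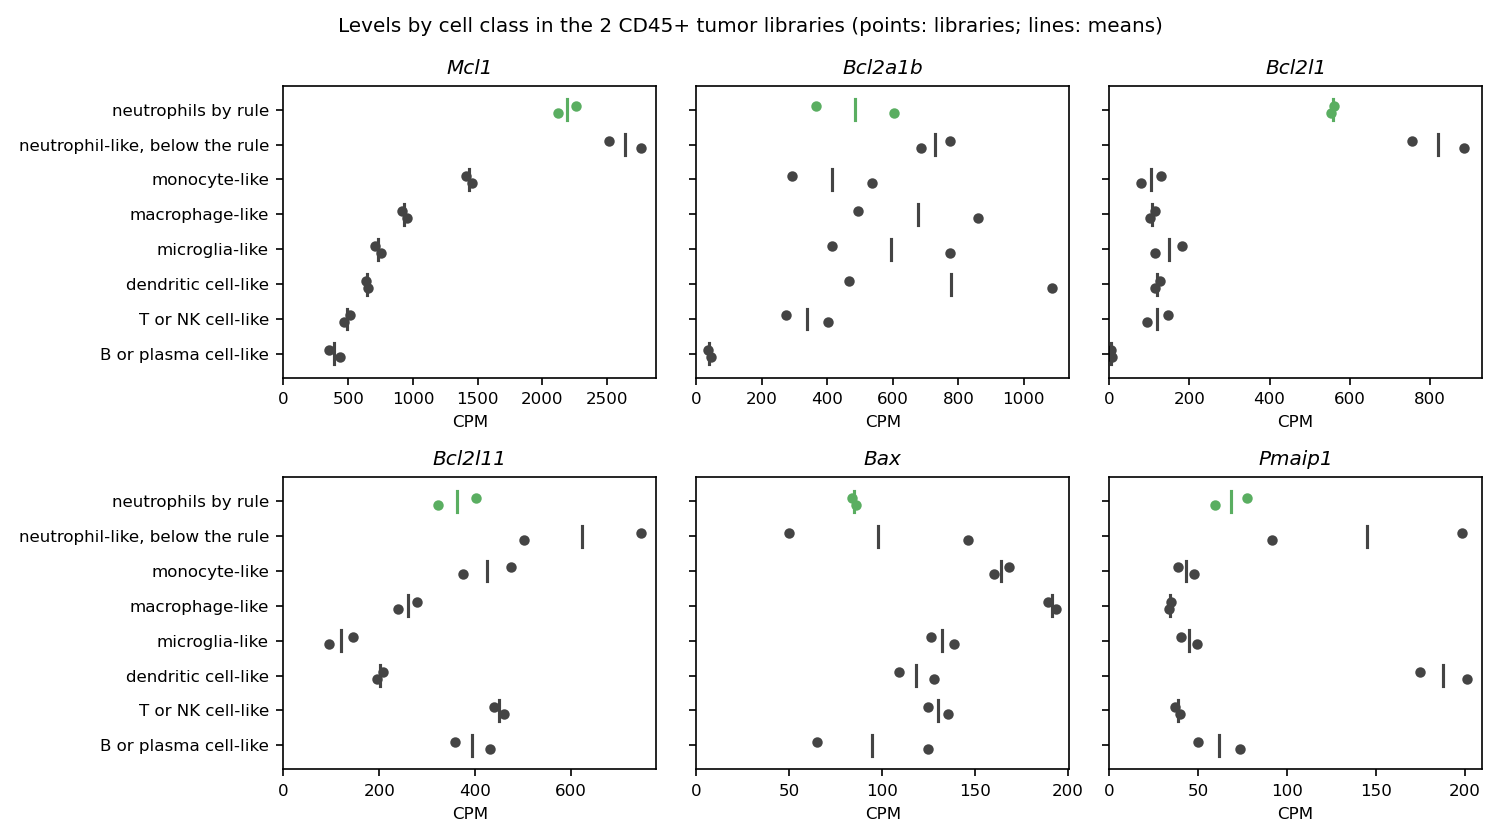
Levels in CPM of 6 genes in neutrophils by the rule (green) and in 7 classes of the other cells of the CD45+ libraries; points are the 2 libraries and lines their means. Mcl1 and Bcl2l1 are highest in both sets of neutrophils, Pmaip1 is at 175 and 201 in dendritic cell-like cells, and Bcl2a1b and Bcl2l1 are lowest in B/plasma-like cells.

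Sorted against CD45+ tumor neutrophils asked whether the sort, through the gate on CD45, CD11b, LY6G and LY6C, went with the levels of the members. These sets also differed in median depth, at 3904 and 3872 UMIs in sorted and 1614 and 2648 in CD45+ tumor neutrophils. Depth and the sort cannot be told apart here. Few genes separated these populations, with 2.17% of 12497 genes higher and 3.93% lower in sorted cells, and 2 members, Bcl2a1a and Pmaip1, were called higher. Bcl2a1a was at 251 and 187 CPM in sorted and 113 and 137 CPM in CD45+ tumor neutrophils (1.14 ± 0.19, adjusted p = 0.0258). Pmaip1 was at 96.5 and 89.5 CPM against 77.3 and 59.7 CPM (0.81 ± 0.19, adjusted p = 0.0478). Both calls were lost without phagocyte-transcript cells (adjusted p = 0.0509 and 0.114) and without shared barcodes (0.0682 and 0.111). Bcl2a1a was also lost without the first (0.0714) or second (0.0926) sorted tumor library, and Pmaip1 without those (0.133 and 0.286) or without the second CD45+ library (0.0863).

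Another 3 protective members did not pass: Bcl2a1b 1.08 ± 0.26 (adjusted p = 0.0513), Bcl2a1d 0.97 ± 0.25 (adjusted p = 0.0609) and Mcl1 0.82 ± 0.21 (adjusted p = 0.0618). Each passed in some settings, Bcl2a1b without the first (0.0387) or second (0.000276) CD45+ library, Bcl2a1d without the second (0.00263) and Mcl1 without the first (0.0349). Bcl2l1 (0.47 ± 0.21), Bcl2l11 (0.23 ± 0.19), Bax (-0.15 ± 0.16), Bid (0.35 ± 0.24) and Bbc3 (-0.20 ± 0.25) did not pass. Bcl2l1 passed with S100a8 and S100a9 at 0.2% of UMIs (0.90, adjusted p = 0.0144) and with no doublets removed (0.95, adjusted p = 0.0137), where Bax passed as lower (-0.45, adjusted p = 0.0481). Without TMM scaling the median of all genes in this comparison moved by -0.35, to -0.38. The number of genes called also moved, from 271 higher and 491 lower to 55 and 101 without the first sorted tumor library, 3 and 27 without the second, 722 and 1063 without the first CD45+ library and 605 and 933 without the second. The macrophage markers were lower in the sorted cells (5244 and 4056 CPM against 9243 and 13709), and their part in these differences was not tested.

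Within the sorted tumor libraries, neutrophils fell into 8 clusters with at least 100 cells in each library, made without the members' genes and described by number. Cluster 10 was led by C1qa, C1qc and other phagocyte genes and is set apart. Over the other 7 clusters, mean levels of Mcl1 differed 1.23-fold between the lowest and the highest, Bcl2l11 1.41-fold and Bcl2l1 1.46-fold. Bcl2a1b differed 4.66-fold, Bcl2a1d 7.57-fold, Bcl2a1a 7.90-fold, Bax 5.05-fold and Pmaip1 5.38-fold. The clusters share libraries and these are descriptions.

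Cluster 6, led by Bcl2l15, Tex14, Scimp, Clec4n and Il23a, was highest of the 7 for the Bcl2a1 copies and for Bax. Bcl2a1b was at 1738 and 1460 CPM there, Bcl2a1a at 605 and 557 CPM and Bax at 116 and 112 CPM. Its Pmaip1 was also high, at 132 and 137 CPM. Its Mcl1, at 2974 and 2706 CPM, was the lowest of the 7 clusters. Bcl2l15, which leads it, is itself a BCL2 family gene and was not among the members kept out of the clustering.

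Clusters 5 and 7, both with Cd177, Cxcl3 and Fpr1 among their leading genes, combined high Bcl2a1b with little Pmaip1. Bcl2a1b was at 1423 and 1051 CPM in cluster 5 and 1370 and 965 CPM in cluster 7. Pmaip1 was at 28.4 and 24.2 CPM in cluster 5 and 47.8 and 23.0 CPM in cluster 7. Cluster 8, led by Efr3b, Fam107b and Tnfaip6, was the reverse, with Bcl2a1b at 376 and 311 CPM and Pmaip1 at 126 and 157 CPM. Cluster 1, led by P4ha1 and Ero1l, had Bcl2a1b at 602 and 523 CPM and Pmaip1 at 140 and 142 CPM. Cluster 9, led by the interferon-induced genes Rsad2, Ifit1 and Ifit3, had Bcl2a1b at 885 and 722 CPM and Pmaip1 at 174 and 102 CPM. In cluster 10 Mcl1 was at 1571 and 1423 CPM and Bcl2l1 at 284 and 244 CPM, below the other clusters.

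**Figure D5:**
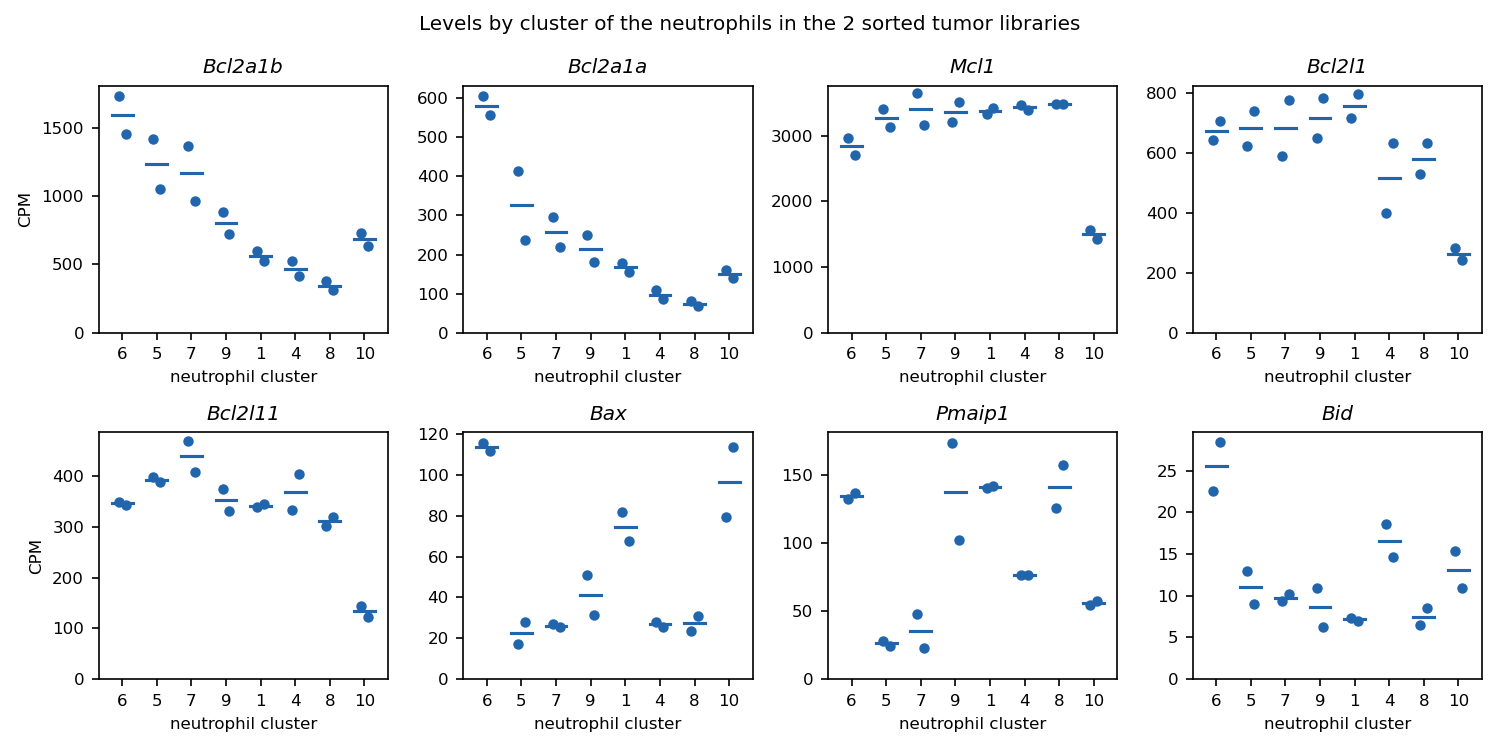
Levels in CPM of 8 genes in 8 clusters of the neutrophils of the sorted tumor libraries, ordered by Bcl2a1b with the phagocyte-led cluster 10 last; points are the 2 libraries and lines their means. Mcl1 is nearly level over the first 7 clusters, while Bcl2a1b falls from 1738 and 1460 in cluster 6 to 376 and 311 in cluster 8.

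Across the 8 sums (neutrophils of 6 libraries and other cells of 2), which share libraries, the genes whose log2(CPM + 1) followed each member most closely were named by Pearson's r among 8913 genes. The nearest genes of Bcl2a1b were Bcl2a1d (r = 0.997) and Bcl2a1a (r = 0.995), and Cxcl1, a neutrophil-attracting chemokine gene, was the next gene of Bcl2a1b (r = 0.994). Bcl2a1a was followed by Bcl2a1b, Gtf2h1 and Bhlhe40, and Bcl2a1d by Bcl2a1b, Bcl2a1a and Tmem33. Mcl1 was followed by Gm12840, Tarm1 and Clec2d, Bcl2l1 by Ciart, Nktr and Efr3b, and Bcl2l11 by Pfkp, Rbpj and Hsp90aa1. Bax was followed by Grhpr, Isoc1 and Aven, Bid by D1Ertd622e, Gm11210 and Gm2245, Pmaip1 by Gm26885, Sertad1 and Pkd1l2 and Bbc3 by Tgfbr2, Ankhd1 and Pnpla8. Among the members, Bcl2l11 went with Bcl2a1a (r = 0.943) and against Bid (r = -0.959). Over these 8 sums, which include other cells, Mcl1 was nearly unrelated to Bcl2a1a (r = -0.01). Both were nevertheless higher in sorted tumor than in blood neutrophils.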

How the data were processed

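Droplet 3' single-cell RNA libraries of 6 samples in 3 groups of 2 were used. UMI counts per gene and barcode were deposited by the authors as filtered matrices; Cell Ranger 7.1.0 and mm10 are named, per the submitters' processing notes. Depth ran from 13945799 to 129422458 UMIs per library. Barcodes under 200 genes or over 10% mitochondrial UMIs were dropped, and the highest Scrublet doublet scores, 0.8% per 1000 cells, were removed because the caller's own threshold marked between 0 and 4 cells. Counts were summed per library and population and tested with edgeR 4.0.16 (quasi-likelihood, TMM, filterByExpr, R 4.3.3), with Benjamini-Hochberg adjustment; library was a block only within the CD45+ libraries, where S100a8 and S100a9 were not tested. CPM is per 1000000 UMIs of a sum. Clusters came from scanpy 1.11.5 and leidenalg 0.10.2 without the members. DESeq2 1.42.0, other thresholds, scalings, filters and left-out libraries were alternatives. Shares of cells with a UMI were taken after thinning to 1000 UMIs. Scripts were tested on simulated data. The members and lists were chosen with earlier results of these data known. Named were all members, the 2 highest and 2 lowest called genes of each pathway list for tumor against blood, and the 3 genes most correlated with each member.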

Additional observations from a re-analysis of the deposited data

How the results depend on the processing

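For tumor against blood neutrophils, 148 of 150 values of the members under other settings kept their direction and their side of the threshold, and both exceptions were of Mcl1. Of 392 values of 27 named pathway genes, 356 did so, 36 no longer passed and none changed direction. With the replicate number as a block Mcl1 stayed called (0.59, adjusted p = 0.0481). Deviations of same-numbered libraries were nearly uncorrelated over genes (r = 0.035 for blood and tumor, 0.040 for tumor and CD45+). Whether same-numbered libraries came from the same mice was not tested.

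Sorted against CD45+ tumor neutrophils depended most on the processing. The numbers of genes higher and lower were 2276 and 2487 with S100a8 and S100a9 at 0.2% of UMIs, 2163 and 2416 with no doublets removed, 1256 and 1271 with no expression filter, 568 higher with DESeq2, 142 and 1791 without TMM, 7 and 122 without phagocyte-transcript cells and 3 and 38 without shared barcodes. With the replicate block 508 were higher, and Bcl2a1b (adjusted p = 0.024) and Bcl2a1d (0.0406) passed. At 2% of UMIs edgeR called 0 genes in either direction, with 476 higher and 533 lower at an unadjusted p under 0.05. With phagocyte-led and B cell-led clusters left out it called 0 higher, with 389 at an unadjusted p under 0.05, and 3 lower. Leaving out 1 library gave 3 to 722 higher and 27 to 1063 lower. Directions changed at 2% of UMIs for Bcl2l1 (-0.083), Bcl2l11 (-0.21), Bax (0.088), Bid (-0.039) and Bbc3 (0.54). They changed without those clusters for Bcl2l1 (-0.17), Bcl2l11 (-0.31), Bax (0.37) and Bbc3 (0.44), and without phagocyte-transcript cells for Bcl2l11 (-0.083) and Bbc3 (0.35). Bcl2l11 was -0.13 without TMM, and Bbc3 0.30 at 0.2% of UMIs and 0.23 with no doublets removed. None of these values passed the threshold, and the cause was not tested.

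For CD45+ tumor neutrophils against other CD45+ cells, the fit without the replicate block called 1772 genes higher and 1417 lower, and DESeq2 called 1843 lower. Leaving out the first or second library gave -0.077 and 0.38 for Bcl2a1a, -0.19 and 0.030 for Bcl2a1b and -0.43 and 0.16 for Bcl2a1d. Bcl2a1a was -0.11 without TMM, and Bcl2a1b was 0.0020 at 2% of UMIs and 0.018 with DESeq2. The cause was not tested. All 80 shares of cells with a UMI were higher at 2000 UMIs or unthinned, where depth limits them less. With 2 libraries a group, small differences of low genes such as Bbc3 and Bid may go undetected. The settings that leave out shared barcodes or clusters, and those of the pathway genes, were chosen after seeing the data.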
